A study of Homo sapiens with 12 samples.

Results

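Tight junction genes were examined as a list of 9 symbols: the claudins CLDN1, CLDN2, CLDN3, CLDN4, CLDN7 and CLDN12, the occludin gene OCLN, the scaffold gene TJP1 and F11R, which encodes junctional adhesion molecule A. Every probe set annotated to these genes was taken, which gave 16 of the 54675 probe sets on the array. F11R was paired with none of them in the annotation used here and was not analysed. The other 8 genes were among the 18621 genes tested, of 19775 with a probe set of their own. They rest on 15 probe sets that name 1 gene each, and the last of the 16 names PTTG1IP2 beside CLDN12 and is described at the end of the claudins.

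The cells were A549, a human lung adenocarcinoma line, profiled on a 1-colour Affymetrix expression array 3 days after transfection with small interfering RNA (siRNA) at 50 nM. There were 4 groups of 3 arrays: FAM60A knockdown and its own non-targeting controls, and SDS3 knockdown and its own non-targeting controls, with no control array shared. FAM60A, now named SINHCAF, and SDS3, now named SUDS3, are subunits of the SIN3-HDAC co-repressor, and each knockdown is set here against its controls to ask how depletion of that subunit changed the junction transcripts. Each knockdown was made in 1 cell line; the treatment protocol names the FAM60A and non-targeting siRNAs, while the SDS3 siRNA is known from the sample labels and the design text.

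Tight junctions are belts of membrane strands that seal the space between neighbouring epithelial cells below their apical face. Claudins build the strands and set which ions cross them: CLDN1 and CLDN3 are known as sealing claudins, CLDN4 as a claudin that limits sodium passage, CLDN2 as a channel for cations and water. Occludin joins the same strands, and ZO-1, the product of TJP1, ties them to the actin cytoskeleton. In alveolar epithelium these proteins keep fluid out of the airspace.

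Both targets fell in their own knockdown, which checks the labels. SINHCAF was left at 15.5% of its control level in FAM60A knockdown cells (limma adjusted p = 7.76e-09), and SUDS3 at 33.4% in SDS3 knockdown cells (limma adjusted p = 3.06e-06). In SDS3 knockdown cells SINHCAF rose by 0.35 on the log2 scale (limma adjusted p = 0.00291). Its other probe set changed by 0.056 there and did not pass (limma adjusted p = 0.787 over every probe set). SUDS3 changed by 0.040 in FAM60A knockdown cells and did not pass (limma adjusted p = 0.698). The median probe set signal was 186 to 192.6 on the FAM60A arrays and 96.82 to 98.32 on the SDS3 arrays, and no level is set against one from the other experiment. Replicates within a group correlated at 0.9978 to 0.9986 over all tested genes, a description across genes that are not independent. All 6 epithelial identity genes (EPCAM, KRT7, KRT8, KRT18, KRT19, CDH1) had a mean log2 signal of 5 or more in every group. So did all 5 fibroblast and all 5 alveolar type II genes with a probe set, so that level does not tell cell types apart. At log2 8 or more stood 6 epithelial genes, or 5 in SDS3 knockdown cells. Beside them were 4 of 5 alveolar type II genes in both FAM60A groups and 1 of 5 in both SDS3 groups. Fibroblast genes numbered 1 in FAM60A knockdown cells and 2 in their controls, and 1 in SDS3 knockdown cells and 0 in theirs. The experiments differ in signal scale, so these counts are not compared between them. On the FAM60A arrays that cut does not set the alveolar type II list apart from the epithelial one. Since separate cultures are not named in the labels, the p-values cover the spread between arrays alone, and that spread may be technical. In whole-well RNA such as this, fewer cells of a kind and less RNA per cell cannot be told apart.

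The promoters of the 4 genes whose brightest probe set passed the test in at least 1 knockdown are shown for reference, because 2 of them, CLDN1 and OCLN, fell together in FAM60A knockdown cells. Each is the gene's first window in the RefSeq table for GRCh38.p14, from 250 bases before to 50 bases after the start, written 5′ to 3′ on the gene's own strand. CLDN1 lies at chr3:190322397-190322696 on the minus strand, CLDN2 at chrX:106899914-106900213 on the plus strand, CLDN3 at chr7:73770221-73770520 on the minus strand and OCLN at chr5:69492297-69492596 on the plus strand. Capitals mark CAGGTG or its reverse complement CACCTG, the E-box known to be bound by the repressors SNAI1, SNAI2, ZEB1 and ZEB2. Both spellings were searched, and as one is the reverse complement of the other, the search covers both strands.
CLDN1: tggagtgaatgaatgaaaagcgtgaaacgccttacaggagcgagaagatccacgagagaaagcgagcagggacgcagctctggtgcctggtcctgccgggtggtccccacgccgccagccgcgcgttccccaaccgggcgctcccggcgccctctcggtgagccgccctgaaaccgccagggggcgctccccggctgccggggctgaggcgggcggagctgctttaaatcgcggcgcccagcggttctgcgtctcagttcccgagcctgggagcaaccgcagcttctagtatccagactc
CLDN2: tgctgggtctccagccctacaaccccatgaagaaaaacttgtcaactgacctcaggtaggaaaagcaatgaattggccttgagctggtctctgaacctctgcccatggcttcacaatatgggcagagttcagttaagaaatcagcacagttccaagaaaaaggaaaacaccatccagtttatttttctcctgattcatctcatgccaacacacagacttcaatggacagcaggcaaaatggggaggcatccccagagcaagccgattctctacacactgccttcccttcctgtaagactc
CLDN3: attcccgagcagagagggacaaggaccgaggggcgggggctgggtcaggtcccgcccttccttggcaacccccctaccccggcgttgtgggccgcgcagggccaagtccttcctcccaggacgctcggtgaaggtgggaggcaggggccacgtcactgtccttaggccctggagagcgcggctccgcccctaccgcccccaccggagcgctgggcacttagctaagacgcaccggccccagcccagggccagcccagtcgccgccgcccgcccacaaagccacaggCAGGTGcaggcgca
OCLN: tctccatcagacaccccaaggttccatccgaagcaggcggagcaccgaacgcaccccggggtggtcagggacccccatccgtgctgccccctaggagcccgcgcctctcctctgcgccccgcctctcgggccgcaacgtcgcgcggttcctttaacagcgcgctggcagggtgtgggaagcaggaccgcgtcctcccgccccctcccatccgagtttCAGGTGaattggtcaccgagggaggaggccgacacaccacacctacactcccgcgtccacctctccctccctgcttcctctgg
The CLDN3 window held 1 match, 36 bases after the start, and the OCLN window held 1 match, 33 bases before it. The CLDN1 and CLDN2 windows held none, which says only that these letters are not in these windows. A second OCLN window, not shown, held 2 matches, 133 bases before its start and 35 bases after it. A second CLDN2 window held none. Which start these cells use was not tested. Over all 14 windows of the 8 genes, 5 held a match, beside 20.6% of the 35116 windows of all genes. A match is a stretch of letters, and binding was not measured. CLDN1 was 67% G and C, CLDN3 72%, OCLN 68% and CLDN2 47.3%.

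In FAM60A knockdown cells CLDN2 and CLDN3 rose and CLDN1 and OCLN fell, and the other 4 genes did not pass the test. Of the 8 genes, 2 rose and 2 fell, where 36.8% of all tested genes passed, 19.2% upward and 17.6% downward (limma, Benjamini-Hochberg adjusted p under 0.05). In SDS3 knockdown cells CLDN2 and OCLN fell, 2 of 8, and none of the 8 rose at that threshold, where 34.6% of all tested genes passed, 15.8% upward and 18.8% downward. At an unadjusted p under 0.05, 1 of the 8, CLDN1, lay higher in SDS3 knockdown cells. With 8 genes, nothing particular to the list is read from 4 calls in the FAM60A experiment and 2 in the SDS3 experiment. The members' median log2 change was -0.13 in FAM60A knockdown cells, beside -0.02 over all tested genes, and 0.028 in SDS3 knockdown cells, beside 0.0064 over all tested genes.

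**Figure D1:**
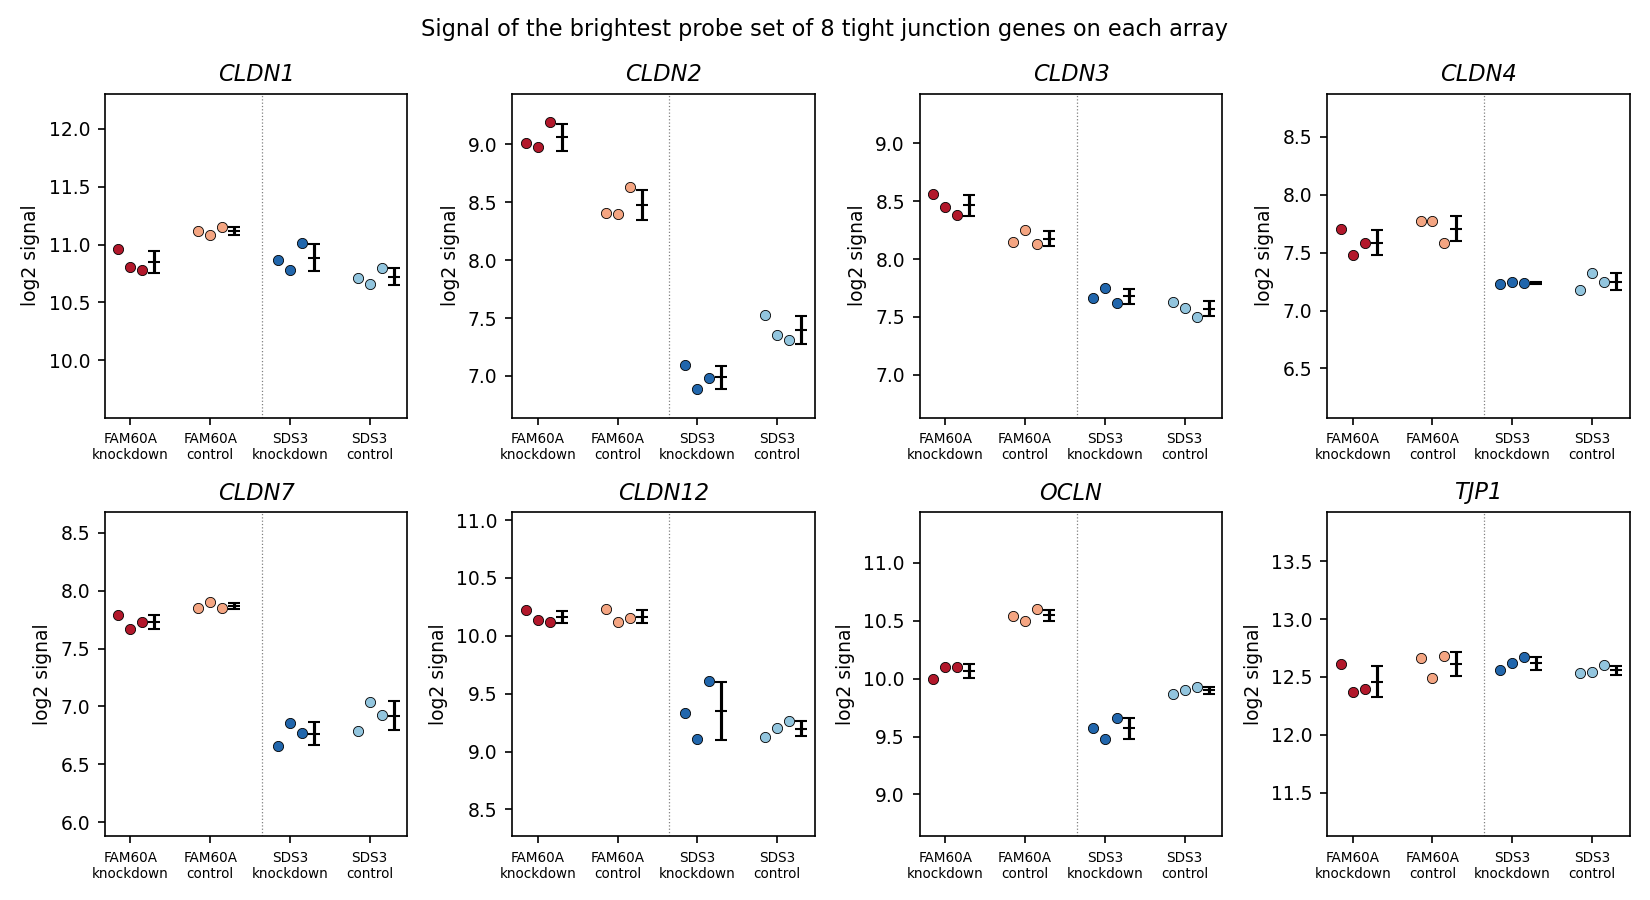
Log2 signal of the brightest probe set of each of 8 tight junction genes on each of 12 arrays, with bars for the mean and SD of 3 arrays; every panel spans the same number of log2 units. CLDN2 knockdown arrays lie above their controls in the FAM60A experiment and below them in the SDS3 experiment, and OCLN knockdown arrays lie below their controls in both.

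CLDN2, the cation and water channel, was, by brightest probe set, the member with the largest passing change in each knockdown, and its direction was opposite between them. Its single probe set, 223509_at, had log2 signals of 9.01, 8.98 and 9.19 on the FAM60A knockdown arrays, against 8.41, 8.40 and 8.63 on their controls. All 3 knockdown arrays lay above all 3 controls. CLDN2 thus changed by 0.58 (SE 0.080, 95% interval 0.40 to 0.75), a 1.49-fold rise with a limma adjusted p of 0.000202.

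In the SDS3 experiment the same probe set gave 7.09, 6.89 and 6.98 on the knockdown arrays, against 7.53, 7.35 and 7.31 on the controls. Here all 3 knockdown arrays lay below all 3 controls. The log2 change was -0.41 (SE 0.076, 95% interval -0.59 to -0.24), which left 75.2% of the control level (limma adjusted p = 0.00306). The contrast of both changes over 12 arrays, SDS3 change minus FAM60A change, was -0.99 (SE 0.117, 95% interval -1.24 to -0.74, limma adjusted p = 2.97e-05). At that threshold 25.3% of all tested genes differed between the knockdowns, 9.99% with a positive contrast and 15.3% with a negative one, and of the 8 members CLDN1 was positive and CLDN2 negative.

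CLDN1, a sealing claudin without which the skin barrier of mice fails, fell in FAM60A knockdown cells on both of its probe sets, though to unlike extents. The brighter, 222549_at, had log2 signals of 10.96, 10.81 and 10.78 on the FAM60A knockdown arrays, against 11.12, 11.08 and 11.15 on the controls. The groups did not overlap, and the log2 change was -0.27 (SE 0.063, 95% interval -0.41 to -0.13, limma adjusted p = 0.00613), or 83% of the control level. The other, 218182_s_at, a probe set whose suffix marks sequence shared with further transcripts, had 9.56, 9.59 and 9.57 on the knockdown arrays, against 10.23, 10.31 and 10.45 on the controls. Its groups lay wholly apart as well and differed by -0.76 (SE 0.069, limma adjusted p = 3.38e-05 over every probe set).

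CLDN1 did not pass in SDS3 knockdown cells on either probe set. The brighter gave log2 signals of 10.87, 10.78 and 11.01 on the SDS3 knockdown arrays, against 10.71, 10.66 and 10.80 on the controls. The ranges overlapped at 1 array, and the log2 change was 0.16 (SE 0.071, 95% interval 0.0017 to 0.33, limma adjusted p = 0.111). The other had 9.62, 9.61 and 9.66, against 9.52, 9.57 and 9.56, so its knockdown arrays all lay higher, by 0.080 on average (limma adjusted p = 0.348 over every probe set). The contrast of the SDS3 change minus the FAM60A change was 0.43 for the brighter probe set (SE 0.096, 95% interval 0.23 to 0.64, limma adjusted p = 0.00432). That call was lost when arrays were scaled to bacterial spike-in probe sets, where the contrast was 0.26 (limma adjusted p = 0.279), or 0.21 with the poly-A spike-ins alone (limma adjusted p = 0.537).

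CLDN3, a sealing claudin that lies next to CLDN4 on chromosome 7, rose in FAM60A knockdown cells on both probe sets. The brighter, 203954_x_at, had log2 signals of 8.56, 8.45 and 8.38 on the FAM60A knockdown arrays, against 8.15, 8.25 and 8.13 on the controls. The groups did not overlap, and the log2 change was 0.28 (SE 0.065, 95% interval 0.14 to 0.43), a 1.22-fold rise (limma adjusted p = 0.00536). The other, 203953_s_at, gave 8.19, 8.25 and 8.22, against 7.57, 7.92 and 7.75, and rose by 0.47 (SE 0.084, limma adjusted p = 0.00209 over every probe set). Both carry suffixes that mark sequence shared with other transcripts.

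The rise of CLDN3 did not pass under spike-in scaling, at 0.26 with all spike-ins (limma adjusted p = 0.0985) and 0.18 with the poly-A spike-ins (limma adjusted p = 0.369). In SDS3 knockdown cells its brighter probe set had 7.66, 7.75 and 7.62, against 7.63, 7.58 and 7.50 on the controls, which overlap. The log2 change there was 0.11 (SE 0.059, 95% interval -0.025 to 0.25, limma adjusted p = 0.193), and on the other probe set it was 0.00092 (limma adjusted p = 0.997). The contrast between the knockdowns was -0.17 (95% interval -0.36 to 0.016, limma adjusted p = 0.173) and passed only when the probe sets of a gene were averaged (-0.32, limma adjusted p = 0.0134).

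CLDN4, which limits sodium passage between cells, did not pass in either knockdown. Its brighter probe set, 201428_at, had log2 signals of 7.70, 7.48 and 7.58 on the FAM60A knockdown arrays, against 7.77, 7.77 and 7.58 on the controls, and the groups overlapped. CLDN4 changed by -0.12 there (95% interval -0.29 to 0.047, limma adjusted p = 0.248). On the SDS3 arrays it had 7.23, 7.25 and 7.24, against 7.18, 7.32 and 7.25, a log2 change of -0.0053 (95% interval -0.13 to 0.12, limma adjusted p = 0.955). The knockdown arrays lay within the range of the controls. Its other probe set, 1569421_at, changed by -0.14 in FAM60A knockdown cells and 0.14 in SDS3 knockdown cells, and neither passed (limma adjusted p = 0.227 and 0.241 over every probe set).

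CLDN7, a claudin of the lateral membrane that binds EPCAM, had knockdown arrays below the controls in the FAM60A experiment without passing the test. Its probe set 202790_at gave 7.79, 7.67 and 7.73 on the FAM60A knockdown arrays, against 7.85, 7.90 and 7.85 on the controls, so the groups did not overlap. The log2 change was -0.14 (SE 0.056, 95% interval -0.26 to -0.014, limma adjusted p = 0.0799), and it passed after quantile normalization (-0.15, limma adjusted p = 0.0453). On the SDS3 arrays it gave 6.66, 6.86 and 6.77, against 6.79, 7.04 and 6.93, which overlap, with a log2 change of -0.16 (95% interval -0.34 to 0.024, limma adjusted p = 0.167), and it passed with array weights (-0.22, limma adjusted p = 0.046). The contrast of the SDS3 change minus the FAM60A change was -0.020 (95% interval -0.23 to 0.19, limma adjusted p = 0.909). Of the 8 genes, 5 had FAM60A knockdown arrays wholly on one side of their controls, where 48.1% of all tested genes did, and 2 had SDS3 knockdown arrays so placed, where 47.6% of all tested genes did.

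CLDN12, a claudin that lacks the scaffold-binding end of most others, did not pass in either knockdown. Its probe set 223249_at had log2 signals of 10.22, 10.14 and 10.12 on the FAM60A knockdown arrays, against 10.23, 10.12 and 10.15 on the controls, a log2 change of -0.0099 (95% interval -0.14 to 0.12, limma adjusted p = 0.914). The groups overlapped throughout. On the SDS3 arrays it had 9.33, 9.11 and 9.61, against 9.13, 9.20 and 9.26, where the knockdown arrays spread across the controls (SD 0.253 and 0.0673). CLDN12 changed by 0.15 (95% interval -0.11 to 0.41, limma adjusted p = 0.344). The probe set 243761_at, which names PTTG1IP2 and CLDN12, stayed below the level needed for a test, with mean log2 signals of 4.64 in FAM60A knockdown cells and 4.66 in their controls, and of 3.94 in SDS3 knockdown cells and 4.06 in their controls.

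OCLN, which encodes occludin, fell in both knockdowns on its brightest probe set, 227492_at. It had log2 signals of 10.00, 10.10 and 10.10 on the FAM60A knockdown arrays, against 10.54, 10.50 and 10.60 on the controls. The groups lay wholly apart. OCLN changed by -0.48 (SE 0.059, 95% interval -0.61 to -0.35), which left 71.6% of the control level (limma adjusted p = 8.35e-05).

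On the SDS3 arrays the same OCLN probe set had 9.57, 9.48 and 9.66 on the knockdown arrays, against 9.87, 9.90 and 9.93 on the controls. Again no knockdown array reached the lowest control. The log2 change was -0.33 (SE 0.061, 95% interval -0.47 to -0.19), which left 79.7% of the control level (limma adjusted p = 0.00309). The contrast between the knockdowns was 0.15 (95% interval -0.024 to 0.33, limma adjusted p = 0.198), and it turned to -0.020 with all spike-ins and -0.068 with the poly-A spike-ins.

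The other 3 OCLN probe sets moved less than the brightest one. In FAM60A knockdown cells 209925_at had 7.97, 8.06 and 7.83, against 8.27, 8.08 and 8.27, and passed at -0.25 (SE 0.080, limma adjusted p = 0.0415 over every probe set). No knockdown array of that probe set reached its lowest control, but the call was lost without either of 2 control arrays (replicates 1 and 3, limma adjusted p = 0.131 and 0.129) or either of 2 knockdown arrays (replicates 1 and 3, limma adjusted p = 0.0754 and 0.143). There 231022_at changed by -0.13 and 235937_at by -0.14, and neither passed (limma adjusted p = 0.159 and 0.202 over every probe set). The log2 changes of these 3 in SDS3 knockdown cells were 0.095, -0.049 and -0.15, and none passed (limma adjusted p = 0.346, 0.749 and 0.208 over every probe set). With the 4 probe sets averaged, OCLN changed by -0.11 in SDS3 knockdown cells and did not pass (limma adjusted p = 0.157). RefSeq lists a transcribed copy of the gene, OCLNP1, on the same chromosome, and whether these probe sets also detect it was not tested.

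TJP1, which encodes the scaffold ZO-1, did not pass in either knockdown. Its brighter probe set, 202011_at, had log2 signals of 12.61, 12.37 and 12.40 on the FAM60A knockdown arrays, against 12.66, 12.49 and 12.68 on the controls, which overlap. TJP1 changed by -0.15 (SE 0.079, 95% interval -0.32 to 0.024, limma adjusted p = 0.169), and it passed without knockdown replicate 1 (-0.22, limma adjusted p = 0.0408). On the SDS3 arrays it had 12.56, 12.62 and 12.67, against 12.53, 12.54 and 12.60, a log2 change of 0.062 (95% interval -0.060 to 0.18, limma adjusted p = 0.424). These groups overlapped too, and the contrast between the knockdowns, 0.21 (95% interval -0.0025 to 0.43), had a limma adjusted p of 0.141, or 0.0352 without FAM60A knockdown replicate 1. The other probe set, 214168_s_at, changed by -0.18 in FAM60A knockdown cells and -0.15 in SDS3 knockdown cells, and neither passed (limma adjusted p = 0.147 and 0.242 over every probe set).

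**Figure D2:**
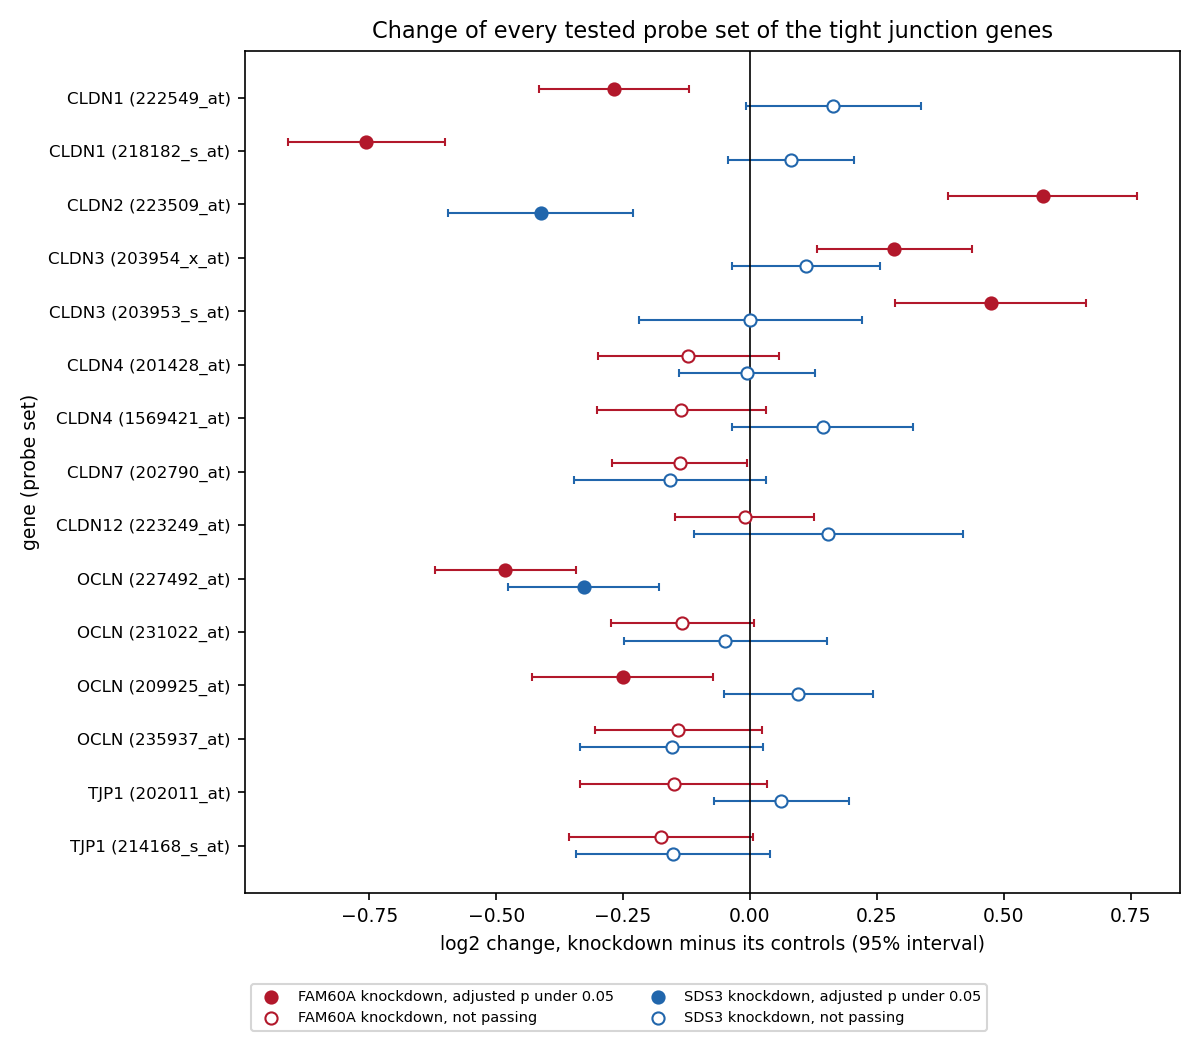
Log2 change, knockdown minus its controls, of each of 15 probe sets of the tight junction genes, with 95% intervals from the fit of every probe set; filled points have a limma adjusted p under 0.05. Both CLDN1 and both CLDN3 probe sets pass in FAM60A knockdown cells, while of the 4 OCLN probe sets 2 pass there and 1 in SDS3 knockdown cells.

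Counted by probe set, 3 of the 15 rose and 4 fell in FAM60A knockdown cells, where 26.8% of all tested probe sets passed, 14.7% upward and 12.1% downward. With SDS3 siRNA 0 rose, also at an unadjusted p under 0.05, and 2 fell (limma), where 24.2% of all tested probe sets passed, 11% upward and 13.2% downward. FAM60A knockdown arrays lay wholly on one side of the controls for 9 of the 15, beside 41% of all tested probe sets, and SDS3 knockdown arrays for 3, beside 39.4%. The probe sets of 1 gene share its transcripts and are not replicates of a condition.

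The scale of the arrays bears on the SDS3 values. The 45 bacterial and phage spike-in probe sets averaged a log2 signal of 10.13 on the SDS3 knockdown arrays and 9.93 on their controls, a difference of 0.204, and 10.91 on the FAM60A knockdown arrays and 10.88 on theirs, a difference of 0.030. Scaling the arrays to these spike-ins moved the median change of all genes to -0.20 in the SDS3 experiment and -0.053 in the FAM60A experiment, and scaling to the poly-A spike-ins, an alternative chosen after the data were seen, moved it to -0.32 and -0.12. All changes given above are therefore relative to the bulk of genes in their experiment. The rise of CLDN2 in FAM60A knockdown cells, its fall in SDS3 knockdown cells, the fall of OCLN in both and the fall of CLDN1 in FAM60A knockdown cells passed under each of these scalings in the fit of 1 probe set per gene. In the fit of every probe set the brighter CLDN1 probe set did not pass with the spike-ins (limma adjusted p = 0.0711 with all and 0.0615 with poly-A) or without FAM60A knockdown replicate 3 (0.0525), while the other CLDN1 probe set passed there. CLDN7 passed as lower in SDS3 knockdown cells under both spike-in scalings (-0.36 and -0.48), and CLDN4 under the poly-A one (-0.33). Of all 18621 tested genes, 6877 passed as lower there with all spike-ins and 9121 with the poly-A spike-ins.

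**Figure D3:**
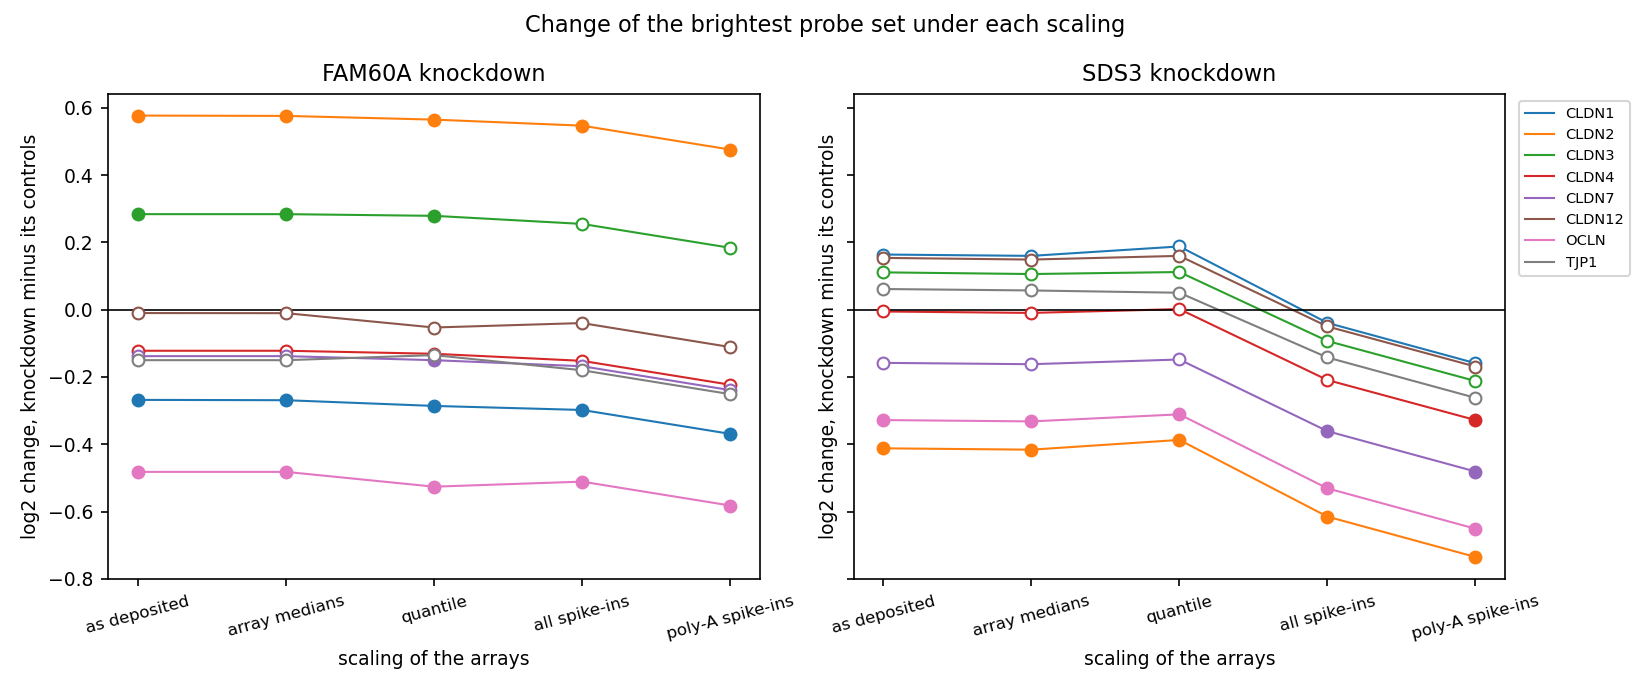
Log2 change of the brightest probe set of 8 tight junction genes under 5 scalings of the arrays, knockdown minus its controls, with the FAM60A experiment on the left and the SDS3 experiment on the right; filled points have a limma adjusted p under 0.05. CLDN2 and OCLN keep their direction throughout, and in the SDS3 experiment the changes of CLDN1, CLDN3, CLDN12 and TJP1 turn from above 0 to below 0 under the spike-in scalings.

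Among the other claudins, 14 of 18 listed genes had a tested probe set. As deposited, 19.2% of all tested genes were higher and 17.6% lower in FAM60A knockdown cells, and 15.8% and 18.8% in SDS3 knockdown cells. These shares stand beside the counts here and in the lists that follow. Counts under spike-in scaling have another background. With all spike-ins 911 of the 18621 genes were higher and 6877 lower in SDS3 knockdown cells, and 497 and 9121 with the poly-A spike-ins. In FAM60A knockdown cells 2142 were higher and 2160 lower with all spike-ins, and 1349 and 2251 with the poly-A spike-ins. With FAM60A siRNA CLDN23 rose by 0.38 (limma adjusted p = 0.000341), CLDN15, known as a pore-forming claudin of the gut, fell by 0.17 (limma adjusted p = 0.0361), and the other 12 did not pass, with a median of -0.011. The CLDN15 call was lost without any 1 of the 3 control arrays or without knockdown replicate 1 or 3 (limma adjusted p of 0.0512 to 0.0987). It was also lost with probe sets averaged (-0.087, limma adjusted p = 0.238) and with a term for replicate number (0.0656). Neither all spike-ins (0.234) nor the poly-A spike-ins (0.165) kept it. The CLDN23 call was lost under poly-A scaling (0.28, limma adjusted p = 0.15). With SDS3 siRNA CLDN23 rose by 0.27 (limma adjusted p = 0.011), the other 13 did not pass, and the median was 0.080. CLDN23 stood at 0.063 there with all spike-ins (limma adjusted p = 0.646) and at -0.056 with the poly-A spike-ins. Under these 2 scalings 0 of the 14 were higher, and 0 and 4 were lower. By limma's contrast 0 of the 14 differed between the knockdowns after adjustment, and 1, CLDN10, had an unadjusted p under 0.05. CLDN8 and CLDN20 count among the 14 in the SDS3 results and the contrast, though they lay below log2 5 on the SDS3 arrays. Their mean log2 signals were 4.09 and 4.40 in SDS3 knockdown cells and 3.94 and 4.27 in the controls.

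The other membrane proteins of the junction, which include tricellulin, the angulins and further adhesion molecules, held 12 tested genes of 13 listed. Among them 7 fell and 1 rose in FAM60A knockdown cells, with a median of -0.18 beside -0.02 over all genes, where 17.6% of all tested genes fell and 19.2% rose, and 5 fell and 1 rose under either spike-in scaling. TMEM47, a claudin-related membrane protein, rose by 0.97 (limma adjusted p = 1.41e-05). IGSF5, a member of the junctional adhesion molecule family, changed by -0.57 (limma adjusted p = 0.00117), and MARVELD2, which encodes tricellulin and is the neighbour of OCLN on chromosome 5, by -0.46 (limma adjusted p = 0.000556). The IGSF5 signal was near the level needed for a test, at a mean log2 of 5.27 in FAM60A knockdown cells and 5.84 in their controls. On the SDS3 arrays it lay below that level, at 3.73 and 3.70, though it counts among the 12 there.

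In SDS3 knockdown cells 2 of these 12 membrane protein genes fell and 1 rose, with a median of -0.021, while 5 and 7 fell and 0 rose under the 2 spike-in scalings. ESAM, an adhesion molecule best known from endothelium, changed by -0.83 (limma adjusted p = 1.29e-05), and MARVELD2 by -0.22 (limma adjusted p = 0.0447). The MARVELD2 call was lost without replicate 1 or 2 of either group, with limma adjusted p-values of 0.115 to 0.13. It was also lost with probe sets averaged (-0.16, limma adjusted p = 0.172), after quantile normalization (0.0522) and with a term for replicate number (0.0731). JAM3, a junctional adhesion molecule, rose by 0.35 (limma adjusted p = 0.0028) and did not pass with probe sets averaged (0.17, limma adjusted p = 0.0568) or with all spike-ins (0.15, limma adjusted p = 0.26). Between the knockdowns 5 of the 12 genes had a positive contrast and 2 a negative one, and the positive ones numbered 1 and 0 under the spike-in scalings. Of all 18621 tested genes, 333 and 192 passed with a positive contrast under those scalings.

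Scaffold and plaque proteins, which link the strands to the cytoskeleton, held 15 tested genes of 19 listed. In FAM60A knockdown cells 2 rose and 3 fell, with CGNL1 (paracingulin) at 0.82 (limma adjusted p = 4.87e-06), AMOTL1, an angiomotin family member, at 0.55 (limma adjusted p = 8.86e-05) and CGN (cingulin) at -0.38 (limma adjusted p = 0.000949). The SDS3 knockdown raised 3 and lowered 2, with AMOTL2 at 0.93 (limma adjusted p = 4.89e-06), MAGI3 at -0.59 (limma adjusted p = 0.00246) and CGNL1 at 0.46 (limma adjusted p = 0.00325). AMOT counts among the 15 there, though its mean log2 signal was 4.37 in SDS3 knockdown cells and 4.32 in the controls, below the level of 5. Under the 2 spike-in scalings the SDS3 counts were 2 higher and 5 lower, and 1 higher and 8 lower, and CGNL1 did not pass with the poly-A spike-ins (0.14, limma adjusted p = 0.376).

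The polarity complexes that place the junction along the cell's side held 15 tested genes. Of these, 4 rose and 4 fell in FAM60A knockdown cells, and in SDS3 knockdown cells 4 rose and 3 fell, or 1 and 0 rose with 4 and 7 lower under the spike-in scalings. The PAR complex genes in the list moved both ways. With FAM60A siRNA PARD6B changed by -1.16 (limma adjusted p = 2.27e-05), or -0.38 with probe sets averaged, the kinase gene PRKCI by -0.82 (limma adjusted p = 2.37e-06) and PARD3 by -0.23 (limma adjusted p = 0.0105), the last of which did not pass under either spike-in scaling. PRKCZ, the other atypical protein kinase C gene, rose by 0.57 (limma adjusted p = 2.05e-05) and PARD6G by 0.36 (limma adjusted p = 0.00168), or 0.078 with probe sets averaged (limma adjusted p = 0.286). After SDS3 knockdown PARD3 changed by -1.10 (limma adjusted p = 4.9e-06), PRKCI by -0.40 (limma adjusted p = 0.00562) and PARD6B by -0.33 (limma adjusted p = 0.00701). With probe sets averaged, PRKCI (limma adjusted p = 0.0851) and PARD6B (-0.080, limma adjusted p = 0.229) did not pass. PARD6G rose by 0.56 in SDS3 knockdown cells (limma adjusted p = 0.00197), or 0.23 with the poly-A spike-ins (limma adjusted p = 0.144), and PRKCZ by 0.36 (limma adjusted p = 0.00154), or 0.16 with all spike-ins (limma adjusted p = 0.244). LLGL2, a basolateral polarity gene, rose by 0.60 in FAM60A knockdown cells (limma adjusted p = 0.000103). PRKCZ in both knockdowns, PARD3 and PARD6G with FAM60A siRNA and PARD6B with SDS3 siRNA were named after their values were seen.

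Adherens junction and desmosome genes, the cell contacts below the tight junction, held 18 tested genes of 19 listed, of which 5 rose and 5 fell in FAM60A knockdown cells and 6 rose and 4 fell in SDS3 knockdown cells. Under the spike-in scalings the SDS3 counts were 1 and 0 higher with 5 and 7 lower. EPCAM changed by -1.22 in FAM60A knockdown cells (limma adjusted p = 2.05e-07) and by -0.58 in SDS3 knockdown cells (limma adjusted p = 4.63e-05). CDH1, which encodes E-cadherin, changed by -1.52 in SDS3 knockdown cells (limma adjusted p = 6.37e-06) and by -0.49 in FAM60A knockdown cells (limma adjusted p = 0.000567). DSP (desmoplakin) and NECTIN3 rose in FAM60A knockdown cells, by 0.67 each (limma adjusted p = 2.4e-05 and 0.000822). DSC3, a desmosomal cadherin, rose by 0.50 in SDS3 knockdown cells (limma adjusted p = 0.000341) and lost its call once shared-sequence probe sets were left out (0.19, limma adjusted p = 0.0564).

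**Figure D4:**
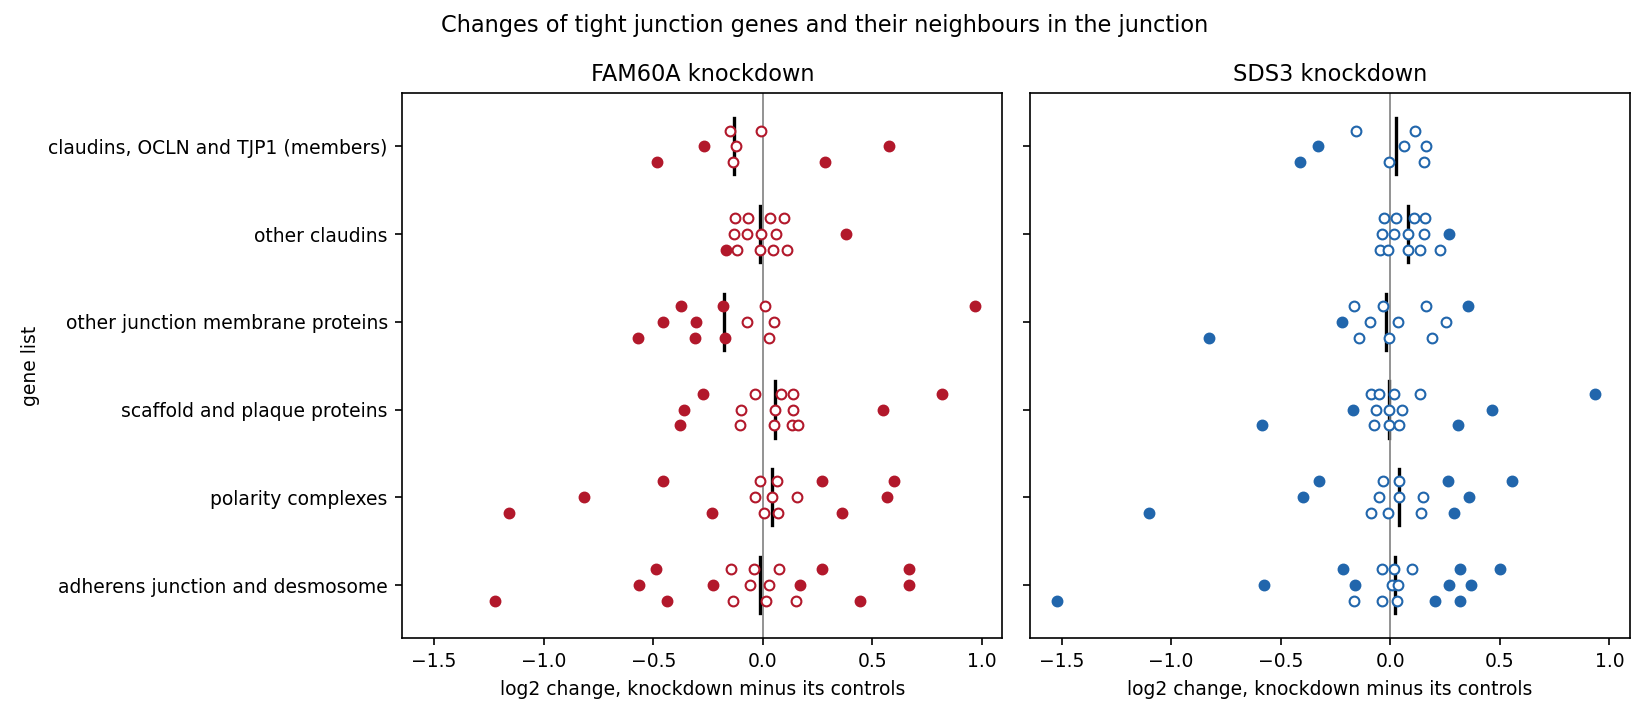
Log2 change of each tested gene in 6 junction gene lists, knockdown minus its controls, with FAM60A knockdown on the left and SDS3 knockdown on the right; filled points have a limma adjusted p under 0.05 and the black bar is the list's median. The membrane proteins other than claudins have a median of -0.18 in FAM60A knockdown cells and -0.021 in SDS3 knockdown cells, and the other claudins have medians of -0.011 and 0.080, with CLDN23 the point farthest above 0 in both.

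Transcription factors known to act on claudin or occludin genes held 13 tested genes of 15 listed. In FAM60A knockdown cells 2 rose and 2 fell, and in SDS3 knockdown cells 3 rose and 4 fell, or 3 and 1 rose with 5 and 7 lower under the spike-in scalings. KLF4, a factor of epithelial differentiation, changed by -0.96 in FAM60A knockdown cells (limma adjusted p = 1.85e-06) and by -1.59 in SDS3 knockdown cells (limma adjusted p = 3.35e-06). SNAI1, a repressor of claudin and occludin genes, changed by -0.34 in FAM60A knockdown cells (limma adjusted p = 0.00543), and ELF3, an epithelial ETS factor, by -1.29 in SDS3 knockdown cells (limma adjusted p = 2.75e-06). The calls of KLF5 in FAM60A knockdown cells (0.33, limma adjusted p = 0.00591) and of ZEB2 in SDS3 knockdown cells (0.97, limma adjusted p = 0.00139) depend on the probe set. Without probe sets of shared sequence these changes were -0.38 and -0.054. Of the other E-box repressors, named after their values were seen, SNAI2 rose by 0.53 (limma adjusted p = 0.00318) and ZEB1 by 0.52 (limma adjusted p = 0.00112) in SDS3 knockdown cells. Neither passed with the poly-A spike-ins (0.21 and 0.20, limma adjusted p = 0.188 and 0.208), and ZEB1 did not pass with probe sets averaged (0.13, limma adjusted p = 0.113). SNAI2 changed by 0.17, ZEB1 by 0.12 and ZEB2 by 0.24 in FAM60A knockdown cells without passing (limma adjusted p = 0.0929, 0.117 and 0.268). SNAI1 changed by -0.094 in SDS3 knockdown cells (limma adjusted p = 0.244). TWIST1, also named after its values were seen, rose by 0.24 in FAM60A knockdown cells (limma adjusted p = 0.0439), with overlapping arrays. It changed by -0.051 in SDS3 knockdown cells (limma adjusted p = 0.455).

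Epithelial identity genes moved beside the junction genes, and their part in the results was not tested. Of the 6, 2 rose and 2 fell in FAM60A knockdown cells, with a summed linear signal of 80990 to 84770 on the knockdown arrays and 81050 to 84910 on the controls. In SDS3 knockdown cells 1 rose and 5 fell, where 15.8% of all tested genes rose and 18.8% fell. The summed signal was 67840 to 68600 on the knockdown arrays and 73280 to 75250 on the controls. Under either spike-in scaling 5 fell and 0 rose. Of all 18621 tested genes, 6877 fell and 911 rose with all spike-ins, and 9121 and 497 with the poly-A spike-ins. In both experiments the sums are mostly the signal of KRT7, KRT8 and KRT18, at mean log2 signals of 13.87 to 15.05. They barely register EPCAM and CDH1, at 7.07 to 10.56, which fell in both knockdowns. The keratin gene KRT19 rose by 0.50 in FAM60A knockdown cells (limma adjusted p = 5.06e-05) and changed by -0.35 in SDS3 knockdown cells (limma adjusted p = 0.000931).

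The genes whose pattern was most like CLDN2 over the 12 arrays, each array taken relative to the mean of its experiment's controls, were RBP4, TSKU, ABCC3, TMEM120A and C1S. The root mean square difference from CLDN2 was 0.068 for RBP4, which encodes the plasma carrier of retinol, and 0.094 for C1S, a complement protease gene, on the log2 scale. RBP4 changed by 0.55 in FAM60A knockdown cells and -0.47 in SDS3 knockdown cells, beside 0.58 and -0.41 for CLDN2. The nearest genes of the junction lists, looked up after values were seen, were AMOTL1, at rank 163 of all genes, and LLGL2, at rank 338.

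The genes most like OCLN were NDC80, ITCH, PSMD12, ALG10 and SAAL1, at differences of 0.043 to 0.061. NDC80, a kinetochore gene, changed by -0.48 in FAM60A knockdown cells and -0.26 in SDS3 knockdown cells, beside -0.48 and -0.33 for OCLN. ITCH, a ubiquitin ligase known to bind occludin, changed by -0.39 in FAM60A knockdown cells and -0.35 in SDS3 knockdown cells. MARVELD2 was the nearest junction gene, with a difference of 0.106 at rank 250, followed by CXADR at rank 353.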

How the data were processed

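RNA from 12 arrays of A549 cells was hybridised to a 1-colour Affymetrix expression array, and groups were taken from the sample titles. The deposited table holds intensity on a linear scale after RMA, per the submitters' processing notes, and its log2 was taken here. RMA gives its arrays a common distribution, so a shift shared by most transcripts is removed beforehand. Which arrays RMA processed jointly is not given in the sources. The 12 arrays do not share a common distribution, with median signals of 186 to 192.6 in the FAM60A experiment and 96.82 to 98.32 in the SDS3 experiment. No detection calls were used, and the number of arrays limits the precision.

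Of the probe sets, 41097 had 1 gene symbol, 1801 several and 11777 none in the platform annotation, and 41043 matched RefSeq's gene table of GRCh38.p14 by Entrez identifier. Each gene was represented by the brightest probe set naming it alone, by mean log2 signal over 12 arrays, and all probe sets were also fitted individually. Features with at least 3 of the 12 arrays at log2 5 or more were tested, 18621 genes and 48347 probe sets. A feature could thus be tested in the SDS3 experiment through its level on the FAM60A arrays. Each knockdown was fitted against its controls over 6 arrays by limma, version 3.58.1 under R 4.3.3 (lmFit, eBayes, Benjamini-Hochberg adjustment over all tested features, threshold 0.05), and the difference as a contrast over 12 arrays. Files were read with the data.table package, version 1.17.8. The fit was tested on simulated data.

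Named genes were all members, both targets, and up to 3 genes per list and knockdown with the largest passing change; CDH1 in FAM60A knockdown cells and KRT19 come from the epithelial list. Genes of like pattern were the 5 with the smallest root mean square difference. The members and lists were chosen with earlier results of these data known. Alternatives changed the filter, the probe sets used, the scaling, the fit, the threshold and the arrays included.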

Additional observations from a re-analysis of the deposited data

Results flagged for a closer look

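Among the 8 tight junction genes, 2 changed differently in the knockdowns by the contrast over 12 arrays, where 25.3% of all tested genes did. For CLDN2 the SDS3 change minus the FAM60A change was -0.988 (log2, limma adjusted p = 2.97e-05), with all 3 SDS3 knockdown arrays below their controls and all 3 FAM60A knockdown arrays above theirs. It passed under all 24 alternatives run for that contrast, from -1.21 to -0.923. For CLDN1 the contrast was 0.432 (limma adjusted p = 0.00432) on the brighter probe set, with 3 of 3 FAM60A knockdown arrays below their controls. It passed under 22 of 24 alternatives, the exceptions being both spike-in scalings.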

How the results depend on the processing

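Across 25 alternatives, 1660 of 1800 recomputed values of named genes and probe sets kept their direction and side of the threshold, 63 lost the call, 20 gained it and 57 turned direction. CLDN2 in both knockdowns, OCLN and CLDN1 in FAM60A knockdown cells passed under all 19 settings run for each, with log2 changes of 0.476 to 0.65 and -0.735 to -0.346 for CLDN2, -0.582 to -0.251 for OCLN and -0.512 to -0.232 for CLDN1. RMA before deposit and 3 arrays a group limit every value, and the cause of changed calls was not tested.

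With probe sets averaged, 1 member fell in SDS3 knockdown cells, 2 members had a negative contrast, and KLF5 stood at -0.0264 (FAM60A), CLDN4 at 0.0689 and TJP1 at -0.0453 (SDS3). Without probe sets of shared sequence KLF5 stood at -0.384 and ZEB2 at -0.0536. With array medians 203953_s_at stood at -0.00333 and with array weights at -0.0365 (SDS3). After quantile normalization CLDN4 stood at 0.00181 (SDS3) and the CLDN7 contrast at 0.00237. With trend and robust settings 1 member, CLDN1, rose in SDS3 knockdown cells. CLDN7 gained a call as lower in FAM60A knockdown cells after quantile normalization and in SDS3 knockdown cells with array weights.

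With all spike-ins, FAM60A knockdown cells had 1 member higher, 4302 genes called, 2 member probe sets lower and 8206 probe sets called. In SDS3 knockdown cells 5 member probe sets fell, beside 14299 of all 48347 tested probe sets. A positive contrast was found for 0 members, beside 333 of all 18621 tested genes. The SDS3 changes turned to -0.0392 (CLDN1), -0.093 (CLDN3), -0.0498 (CLDN12), -0.142 (TJP1), -0.0604 (1569421_at), -0.203 (203953_s_at), -0.109 (209925_at) and -0.124 (218182_s_at), and the contrasts to -0.057 (CLDN4), -0.0101 (CLDN12) and -0.0199 (OCLN). With the poly-A spike-ins, FAM60A knockdown cells had 1 member and 1 member probe set higher, 2 member probe sets lower, 3600 genes and 6566 probe sets called. SDS3 knockdown cells had 4 members lower, beside 9121 of all 18621 tested genes. There 6 member probe sets were lower, beside 20869 of all 48347 tested, and 21819 probe sets were called. The contrast called 2533 genes, 192 of them as positive, and 0 members as positive. The SDS3 changes turned to -0.159 (CLDN1), -0.212 (CLDN3), -0.169 (CLDN12), -0.262 (TJP1), -0.0561 (CLDN23), -0.18 (1569421_at), -0.322 (203953_s_at), -0.228 (209925_at) and -0.243 (218182_s_at), and the contrasts to -0.106 (CLDN4), -0.0586 (CLDN12), -0.0684 (OCLN) and -0.011 (TJP1). Of all calls, 52.2% were higher in FAM60A knockdown and 45.7% in SDS3 knockdown cells as deposited, 49.8% and 11.7% with all spike-ins, and 37.5% and 5.17% with the poly-A spike-ins; for the contrast the share was 39.5%, 9.38% and 7.58%.

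At an adjusted p of 0.01, 4277 genes passed for SDS3 and 2811 for the contrast, 2 member probe sets fell in FAM60A knockdown cells, and 8287 and 7118 probe sets passed in the 2 knockdowns. Leaving out 1 array at a time gave 2 to 3 members lower (FAM60A), 1 to 2 with a positive contrast and 2 to 5 probe sets lower (FAM60A; 2 without knockdown replicate 3); all genes called ran from 5806 to 6406 (FAM60A), 5193 to 6201 (SDS3) and 3945 to 4890 (contrast), and probe sets from 10244 to 11872 and from 8928 to 10785. Over the same settings CLDN12 ran from -0.0384 to 0.0225 (FAM60A), the CLDN7 contrast from -0.0864 to 0.0418, CLDN4 from -0.0389 to 0.0295, 203953_s_at from -0.106 to 0.0804 and 231022_at from -0.115 to 0.0229 (SDS3). TJP1 gave the added FAM60A and contrast calls, both without FAM60A knockdown replicate 1.

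Same-numbered arrays did not deviate together (correlations of -0.118 to -0.0717 for FAM60A and -0.0776 to 0.0343 for SDS3). Unlike-numbered arrays gave -0.0741 to 0.153 and -0.0782 to 0.095. Correlations of deviations from means of 3 arrays cannot settle whether same-numbered samples were handled together, and the labels do not say. With the replicate block, 2 members rose and 2 fell in FAM60A knockdown cells, 0 rose and 2 fell in SDS3 knockdown cells, and 1 contrast was positive and 1 negative, with 6239, 5848 and 4003 genes called; 3 and 2 member probe sets fell in the 2 knockdowns.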

Other observations

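On the FAM60A arrays the alveolar type II list (5 of 6 genes with a probe set) summed to a linear signal of 1883 to 1971 in knockdown and 1767 to 1810 in control cells, and on the SDS3 arrays to 1139 to 1245 in knockdown and 1022 to 1087 in control cells. ABCA3, a lipid transporter gene of alveolar type II cells, rose in both knockdowns, by 0.50 with FAM60A siRNA and 0.30 with SDS3 siRNA (limma adjusted p = 0.000122 and 0.0205). The other 4 tested genes of that list did not pass in either knockdown. Its median log2 change was -0.048 with FAM60A siRNA and 0.13 with SDS3 siRNA. The fibroblast list summed to 1081 to 1179 in FAM60A knockdown and 1145 to 1240 in their controls, and to 638.3 to 661.2 in SDS3 knockdown and 588.9 to 605.5 in their controls. LUM, which encodes the matrix proteoglycan lumican, fell in both knockdowns, by 0.60 and 0.85 (limma adjusted p = 0.000251 and 7.16e-06). THY1, a surface glycoprotein gene of fibroblasts, rose in both, by 0.26 and 0.56 (limma adjusted p = 0.0339 and 0.000128). The endothelial list summed to 945.7 to 1119 in FAM60A knockdown and 1002 to 1054 in their controls, and to 468.1 to 504.9 in SDS3 knockdown and 445.1 to 458.4 in their controls. The leukocyte list, with 3 of 5 genes paired with a probe set in the annotation used here, summed to 586.8 to 643.3 in FAM60A knockdown and 572.5 to 583.6 in their controls, and to 314.6 to 330 in SDS3 knockdown and 328.2 to 367.1 in their controls.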
